A study of Mus musculus with 22 samples.

Results

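The genes described here encode nuclear subunits of respiratory chain complexes I to IV, measured by RNA-seq of amplified total RNA in fully grown mouse oocytes at the germinal vesicle (GV) stage. Members were chosen by name alone, as protein-coding genes of the count table whose GENCODE symbol begins with Ndufa, Ndufb, Ndufc, Ndufs or Ndufv and a number, is Sdha to Sdhd, begins with Uqcr, or names a subunit of Cox4 to Cox8. The rule took 65 of the 52636 genes. Its pattern misses the subunit genes Ndufab1 and Cyc1 and the related Cox7a2l and Ndufa4l2, so the complexes are not complete here. Of these, 7 are core subunits of complex I, 28 are its supernumerary subunits, 4 form complex II, 8 belong to complex III and 18 to complex IV, with Ndufa4 counted in complex IV. The 18 include 7 isoforms that are known for restricted tissues (Cox4i2, Cox6a2, Cox6b2, Cox7a1, Cox7b2, Cox8b and Cox8c). In each run, 62 of the 65 passed the filter on low counts, and Cox7a1, Cox7b2 and Cox8b did not.

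The respiratory chain lies in the inner mitochondrial membrane. Complexes I (NADH dehydrogenase) and II (succinate dehydrogenase) pass electrons to ubiquinone, complex III (cytochrome bc1) passes them to cytochrome c, and complex IV (cytochrome c oxidase) passes them to oxygen. Complexes I, III and IV pump protons and contain subunits made inside the mitochondrion as well as the nuclear ones, and the growing oocyte is known to be rich in mitochondria and to rely on oxidative metabolism of pyruvate.

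The study compared oocytes with and without endogenous RNA interference (RNAi) and the piRNA pathway, all on C57BL/6. The single-end run held Dicer-WT/WT wild type (n = 3), Dicer ΔMT/WT (n = 1), Dicer ΔMT/ΔMT (n = 4), which lacks the promoter of the oocyte Dicer isoform, and Dicer SOM/SOM (n = 3), in which tagged full-length Dicer replaces the oocyte isoform. The paired-end run held double heterozygotes (Mili DAH/WT, Dicer SOM/WT, n = 4, aged 10, 17, 36 and 38 weeks), RNAi mutants (n = 2, aged 13 and 17 weeks) with Dicer SOM/SOM on Mili DAH/WT, 1 piRNA mutant (aged 16 weeks, the Mili mutant of the plots) with Dicer SOM/WT on Mili DAH/DAH, and double mutants (n = 4, aged 11, 11, 35 and 40 weeks), homozygous for both alleles. Every animal of the paired-end run thus carried at least 1 Mili DAH and 1 Dicer SOM allele, so its control is not a wild type, and Mili DAH encodes a catalytically inactive protein. The labels give no ages for the single-end run, each library was made from a pool of oocytes, and the Dicer SOM line descends from a single stem cell clone. Libraries of different ages in the paired-end run came from different animals. For the single-end run and the 2 double mutants of 11 weeks the labels do not say so, and p-values there measure the spread between libraries, which may be technical.

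Total counts ran from 6468380 to 90713013 in the single-end run and from 22928936 to 43540806 in the paired-end run. The lowest belonged to Dicer SOM/SOM replicate 3. Counts are given as CPM, counts scaled to library size by TMM, and as RPKM, the CPM divided by the exon length of the gene in kilobases, which is the scale on which genes can be compared. The targeted gene followed the labels, since Dicer1 lay at 1000 to 1056 CPM in wild type, at 428 to 536 CPM in Dicer ΔMT/ΔMT and at 41.9 to 54.8 CPM in Dicer SOM/SOM, and at 502 to 763 CPM in double heterozygotes against 53.1 to 60.8 CPM in double mutants. Mili DAH is a substitution, so the RNA of Piwil2, the gene of MILI, checks no label. The 12 oocyte markers summed to between 11418 and 14512 CPM over all libraries, whereas 11 granulosa and cumulus markers summed to 83.8 to 155 CPM, of which Nr5a2 gave 38.5 to 92.5 CPM. The sum of the granulosa markers was 105 to 155 CPM in double heterozygotes and 89.1 to 128 CPM in double mutants, and its part in the results was not tested. In these bulk samples fewer cells of a type and less RNA per cell cannot be told apart.

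Single libraries stood apart for the respiratory genes. Double heterozygote replicate 2, from a 10-week animal, had the highest CPM of its run's replicated groups for 41 of the 62 tested members, while it held the highest value for 15.5% of all tested genes. Its members lay a median 0.46 log2 units above their run mean, and the other double heterozygotes ranged from -0.15 to 0.06. Among single-end libraries, Dicer SOM/SOM replicate 3 had the highest CPM for 24 members and the lowest for 13, beside the highest for 22.3% of all tested genes. Results that rest on either library are given with and without it.

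**Figure D1:**
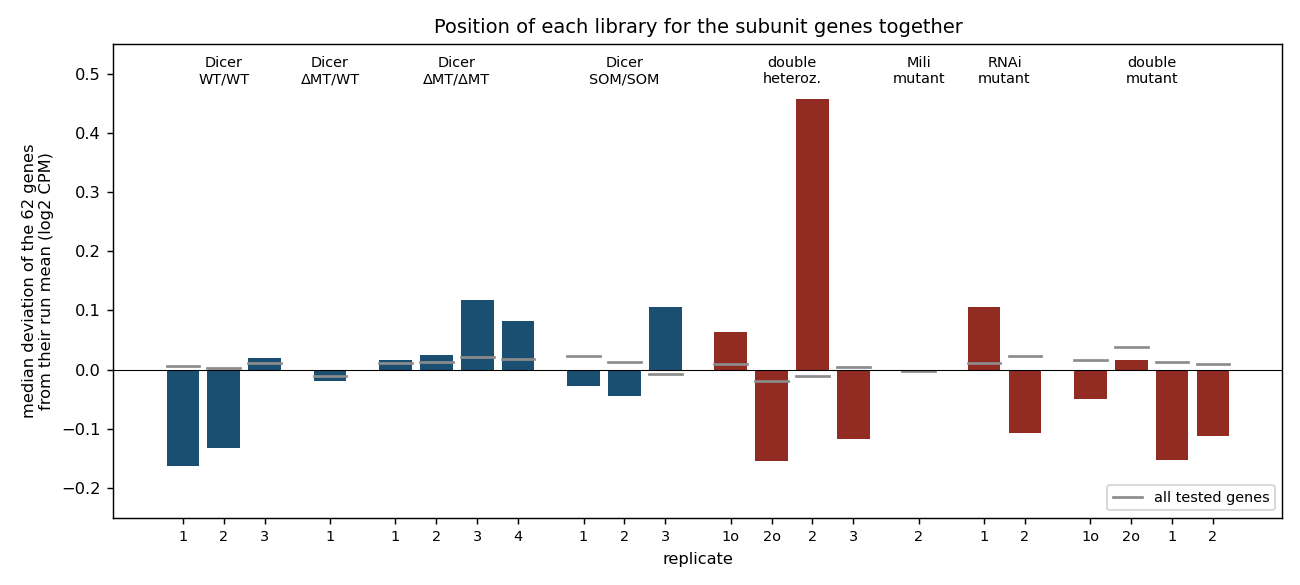
Bars show, for each library, the median deviation of the 62 tested subunit genes from their mean over the replicated libraries of the same run, in log2 CPM, and grey lines show the same median over all tested genes. Double heterozygote replicate 2 stands at 0.46, and the next highest bar of either run is at 0.12.

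Promoter sequence is shown for the 2 members called lower both in Dicer SOM/SOM and in double mutants, Uqcr10 and Cox7c, and for the member with the highest level per length, Cox6a1. RefSeq promoters (GRCm38.p6, from 250 bases before to 50 after the start of transcription) could be matched to 52 of the 65 members. Each was searched on both strands for cores of factors known to serve respiratory genes, GCGCATGC for NRF1, CCGGAAG for ETS factors such as GABP, and AAGATGGC for YY1. The NRF1 core stood in 7 of the 52 member promoters (13.5%) and in 2.71% of all 32851 promoters. The ETS core stood in 11 (21.2%, against 8.86% of all) and the YY1 core in 7 (13.5%, against 2.75%). Cox6a1 held both an NRF1 core, read on both strands of 1 palindrome, and an ETS core. At least 1 of these cores stood in 22 of the 52 member promoters (42.3%) and in 13.3% of all promoters. Among the 11 members called in any comparison below, 9 had a promoter, and 3 of those held a core: Uqcrc1 that of NRF1, Ndufb6 that of ETS and Ndufb8 that of YY1. Below are the bases before the RefSeq start, with these cores in capitals. Uqcr10 (chr11:4704345-4704594, minus strand) and Cox7c (chr13:86046905-86047045, minus strand, cut back to the end of the gene's exons in the annotation) hold none, and Cox6a1 spans chr5:115348959-115349208 on the minus strand. The annotated exons of Cox6a1 reach position 115348981, so the last bases of its stretch, with the ETS core, lie within them.
Uqcr10: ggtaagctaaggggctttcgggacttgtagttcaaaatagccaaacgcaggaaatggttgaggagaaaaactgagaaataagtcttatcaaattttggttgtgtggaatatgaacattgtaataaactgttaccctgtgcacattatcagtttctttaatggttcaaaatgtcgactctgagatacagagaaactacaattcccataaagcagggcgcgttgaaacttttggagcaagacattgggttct
Cox7c: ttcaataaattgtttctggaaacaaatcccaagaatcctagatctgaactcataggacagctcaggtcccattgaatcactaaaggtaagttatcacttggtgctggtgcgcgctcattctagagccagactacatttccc
Cox6a1: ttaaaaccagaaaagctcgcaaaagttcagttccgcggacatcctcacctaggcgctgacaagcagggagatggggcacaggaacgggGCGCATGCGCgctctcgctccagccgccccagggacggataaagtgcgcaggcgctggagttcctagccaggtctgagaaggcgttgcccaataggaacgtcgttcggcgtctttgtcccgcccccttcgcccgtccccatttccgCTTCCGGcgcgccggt

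In wild-type oocytes the subunit genes lay well above the typical gene. Their median was 15.4 RPKM, against 2.10 RPKM over all 23151 genes tested in that run, and 81.1% of the tested genes lay below the members' median. At least 10 RPKM was reached by 44 of the 65. Complex IV had the highest median (37.8 RPKM over 18 genes), followed by complex II (31.0 RPKM over 4), complex III (18.3 RPKM over 8), the supernumerary subunits of complex I (13.5 RPKM over 28) and its core subunits (11.0 RPKM over 7). The double heterozygotes gave a members' median of 13.3 RPKM, with complex II at 30.8 RPKM and complex IV at 22.1 RPKM.

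Cox6a1, the widely expressed isoform of a small subunit of complex IV, had the highest level of all members in wild type and in double heterozygotes. It lay at 160.3 ± 6.66 RPKM (SD, n = 3) in wild type, clear of the next in order, Cox8a (77.0 ± 3.41 RPKM) and Sdhd (76.4 ± 9.01 RPKM), whose ranges overlapped. Sdhd, which anchors complex II in the membrane, was the highest gene of its complex. Sdhb, the iron-sulfur subunit of complex II, lay at 8.16 ± 1.44 RPKM, although the assembled complex holds its subunits in equal number. Uqcrh, the hinge protein that docks cytochrome c, led complex III with 66.4 ± 3.33 RPKM. Complex I was led by Ndufb11, a subunit of the membrane arm, with 43.4 ± 1.96 RPKM.

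The lowest of the 58 members that are not tissue-limited was Uqcrc1, which encodes core protein 1 of complex III. It lay at 0.823 ± 0.173 RPKM (SD, n = 3) in wild type, where its partner Uqcrc2, core protein 2, lay at 39.9 ± 3.35 RPKM. Uqcrc1 made up 2.05 ± 0.560% of the summed RPKM of the pair. In double heterozygotes the same share was 4.15 ± 1.43% (n = 4). Ndufb2 was the lowest of complex I with 1.07 ± 0.214 RPKM, but its exon length of 4375 bases in the table overlaps exons of 3 other genes, so that this level is uncertain.

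**Figure D2:**
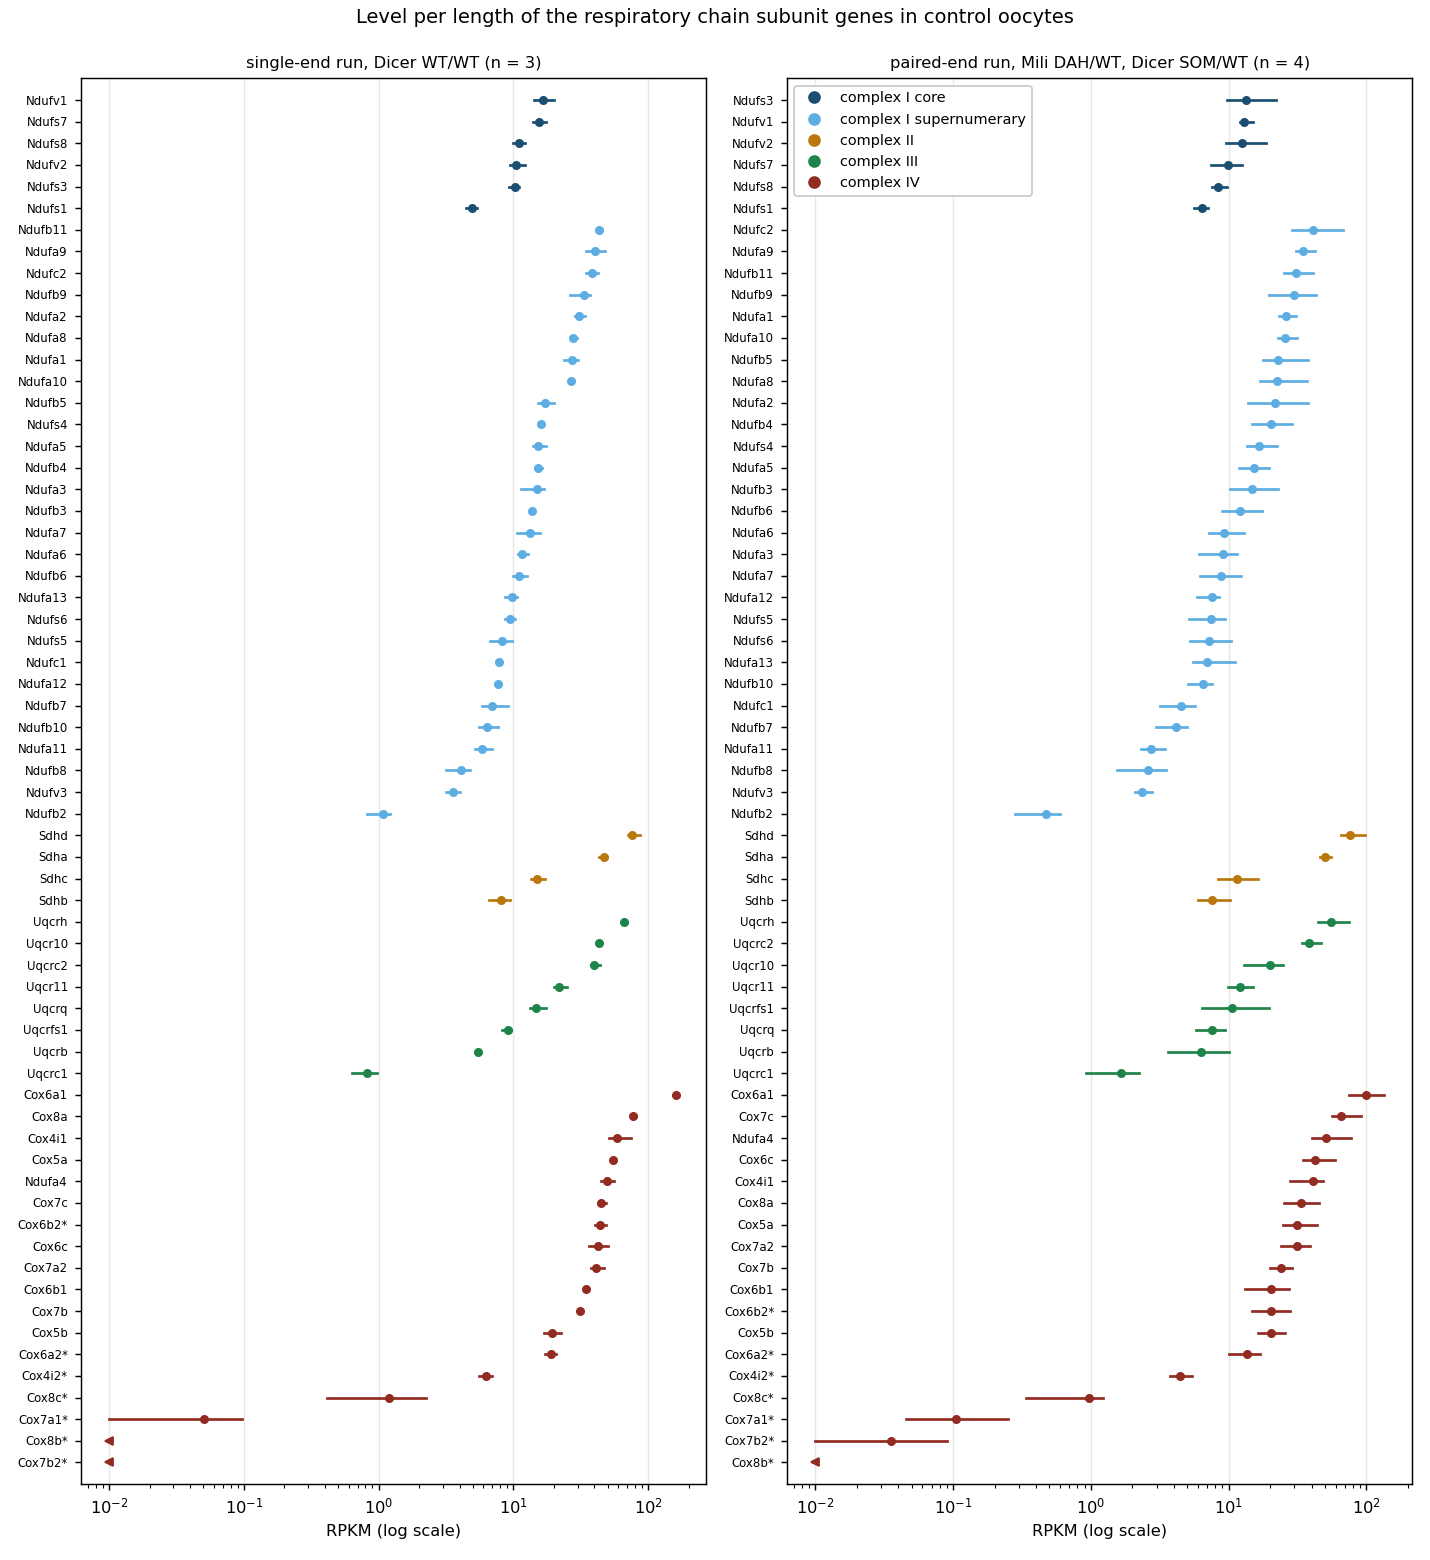
Points show the mean level of the subunit genes in RPKM, without 1 that is not reported here, on a log scale, lines run from the lowest to the highest library, colours give the complex and asterisks mark tissue-limited isoforms, for wild type (left) and double heterozygotes (right). Triangles at the left edge are genes with a mean below 0.01 RPKM. Cox6a1 is at the top of complex IV in both panels, and Uqcrc1 is at the foot of complex III.

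Of the 7 tissue-limited isoforms, 4 were detected well enough to be tested. Cox6b2, known from testis, was as abundant as its common counterpart. Its share of the summed RPKM of Cox6b1 and Cox6b2 was 56.0 ± 3.18% (SD, n = 3) in wild type and 50.3 ± 5.07% (n = 4) in double heterozygotes. Cox6a2, the heart and muscle form, made up 10.6 ± 1.06% of the Cox6a pair in wild type, and Cox4i2, known from lung, 9.86 ± 2.57% of the Cox4i pair. Cox8c, another testis form, made up 1.503 ± 1.09% of the summed Cox8a and Cox8c RPKM. The muscle form Cox7a1 reached at most 0.110 CPM in a library of the single-end run and 0.485 CPM in the paired-end run. Cox8b was at 0 in all libraries of the single-end run and at most 0.0557 CPM in the other, and Cox7b2 stayed at or under 0.0492 CPM.

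**Figure D3:**
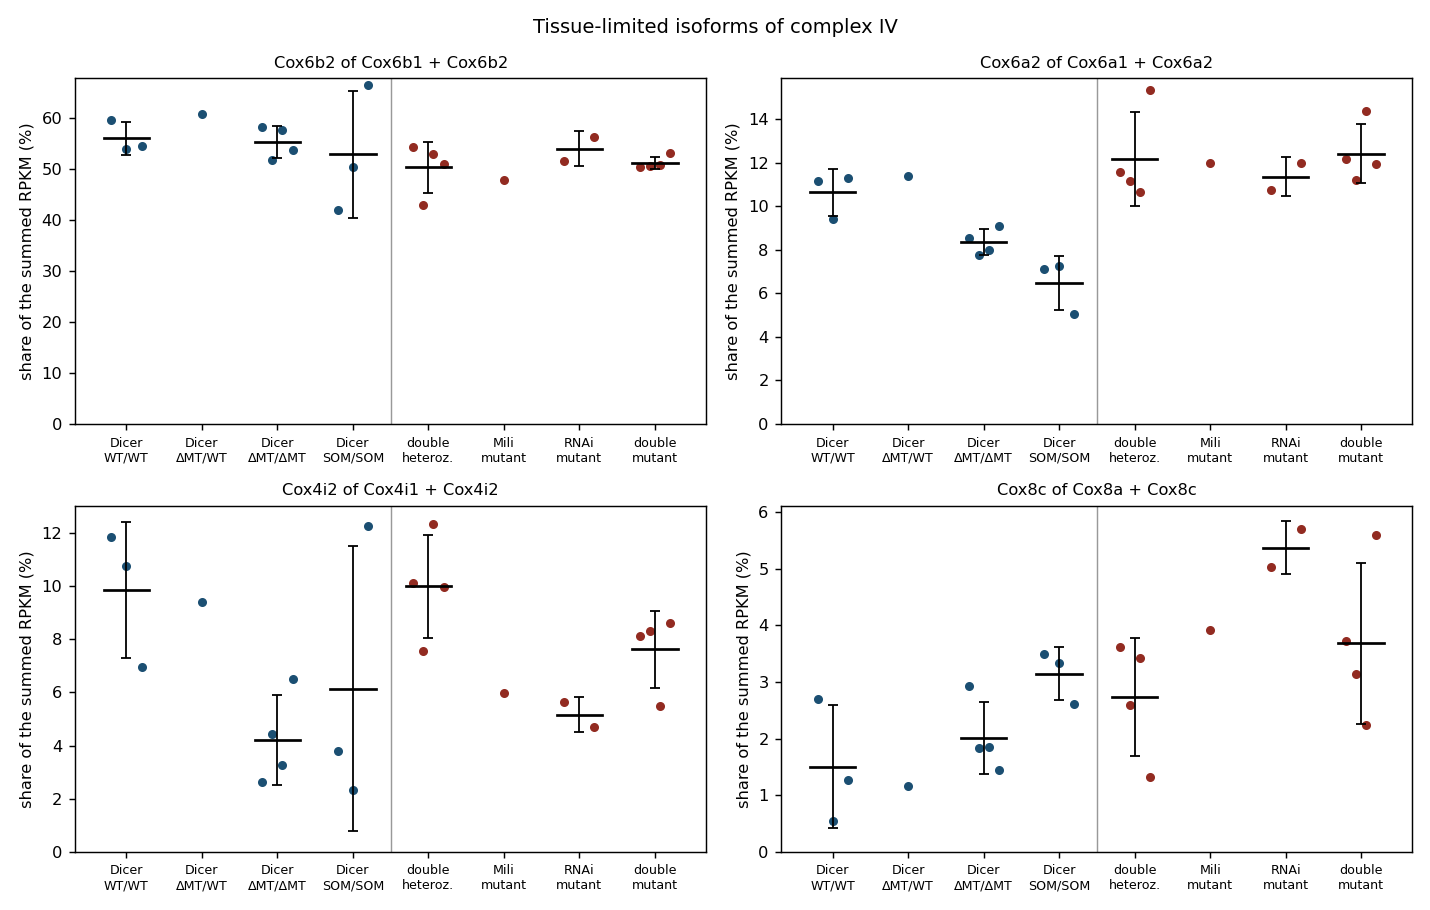
Each point is the share, in 1 library, that the tissue-limited isoform takes of the summed RPKM of its pair, in percent, with the mean and SD of groups with more than 1 library. The Cox6b2 share averages between 50.3% and 56.0% in the replicated groups, and the Cox6a2 share falls from 10.6% in wild type to 6.47% in Dicer SOM/SOM. In the paired-end run the Cox6a2 share averages 12.2% in double heterozygotes, 11.4% in RNAi mutants and 12.4% in double mutants.

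Loss of RNAi left most of the chain near its control level. In Dicer SOM/SOM against wild type, the median change over the 62 tested members was 0.10 log2 units, beside 0.02 over all tested genes. Members called higher numbered 3 of 62, where 14.5% of all tested genes were called higher, and members called lower numbered 4 of 62, where the background was 14.2%. In all, 11.3% of the members and 28.6% of the tested genes were called by edgeR's quasi-likelihood test at an adjusted p under 0.05. The median size of change was 0.17 log2 units for members and 0.42 for all tested genes. The 95% interval lay within 1 log2 unit of no change for 56 of the 62, against 49.2% of tested genes. Members are more abundant than most genes, and their median standard error was 0.15 against 0.23.

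Uqcr10, a small subunit of complex III, changed most among the members that were lower. It stood at 19.5, 18.5 and 18.2 CPM in the 3 wild-type libraries, at 15.6, 13.9, 16.0 and 17.2 CPM in Dicer ΔMT/ΔMT and at 8.63, 10.0 and 11.9 CPM in Dicer SOM/SOM. The 3 groups did not overlap, and all Dicer SOM/SOM libraries were the lowest. The log2 fold change was -0.91 ± 0.13 (SE, edgeR adjusted p = 0.000511) in Dicer SOM/SOM against wild type and -0.65 ± 0.13 (adjusted p = 0.0112) against Dicer ΔMT/ΔMT. In Dicer ΔMT/ΔMT against wild type it was -0.26 ± 0.12, which was not called (adjusted p = 0.176). These comparisons share libraries. The gene lies at chr11:4701973-4704342 (GRCm38, minus strand), and no exon of another gene overlaps it.

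Cox6a2 was called lower in both RNAi-deficient genotypes of the single-end run. It measured 13.1, 11.7 and 14.03 CPM in wild type, 8.63, 8.73, 10.3 and 10.3 CPM in Dicer ΔMT/ΔMT and 7.12, 8.15 and 7.40 CPM in Dicer SOM/SOM, with no overlap between either mutant and wild type. The log2 fold change was -0.77 ± 0.13 (SE, edgeR adjusted p = 0.00132) in Dicer SOM/SOM and -0.45 ± 0.12 (adjusted p = 0.026) in Dicer ΔMT/ΔMT. An exon of Itgad overlaps it on the other strand, and counting ignored strand, so the source of some reads is uncertain.

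Other members of complexes III and IV moved in Dicer SOM/SOM. Uqcrc1 rose from 1.61, 1.43 and 1.05 CPM in wild type to 3.27, 2.58 and 3.63 CPM, with no overlap and a log2 fold change of 1.18 ± 0.25 (SE, edgeR adjusted p = 0.00514). That is the largest rise of any member in the 6 comparisons, and it started from the lowest level of the common subunits. Uqcrfs1, the Rieske iron-sulfur protein of complex III, fell from 12.9, 13.1 and 11.2 CPM to 8.90, 9.52 and 7.83 CPM (log2 fold change -0.49 ± 0.12, adjusted p = 0.0123). Cox7c, a small structural subunit of complex IV, fell from 48.8, 48.1 and 55.1 CPM to 38.2, 42.8 and 38.4 CPM (log2 fold change -0.35 ± 0.09, adjusted p = 0.015), a call that was lost without wild-type replicate 3. Cox5b, a zinc-binding subunit of complex IV, rose with a log2 fold change of 0.41 ± 0.14 (adjusted p = 0.0459). Thus 3 of 8 members of complex III and 3 of 15 tested members of complex IV were called, in both directions, against 1 of 35 in complex I and 0 of 4 in complex II. With 28.6% of all tested genes called, the shares of complex III (37.5%) and complex IV (20%) lay on either side of that background and rest on few genes.

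The call in complex I was Ndufb8, a subunit of the membrane arm. It stood at 9.96, 7.36 and 11.1 CPM in wild type and at 12.2, 13.1 and 21.9 CPM in Dicer SOM/SOM, where replicate 3 was far above the others, and its log2 fold change was 0.68 ± 0.22 (SE, edgeR adjusted p = 0.0364). Without that replicate the change was 0.41 and was not called (adjusted p = 0.0848), and leaving out wild-type replicate 1 or 2 also ended the call. The exons of Gm20538 on the same strand overlap it. Cox5b likewise lost its call without Dicer SOM/SOM replicate 3 (log2 fold change 0.30, adjusted p = 0.113), and without any other replicate of either group except wild-type replicate 3.

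Leaving out Dicer SOM/SOM replicate 3 raised the count of members that were lower from 4 to 8 of 62, with 1 higher, while 26.6% of all tested genes were called in that fit. All the further calls were in complex IV, where 6 of 15 tested members were then lower. Cox8a stood at 44.1, 40.7 and 41.1 CPM in wild type and at 24.4, 26.6 and 45.0 CPM in Dicer SOM/SOM, and its log2 fold change without replicate 3 was -0.72 (edgeR adjusted p = 0.00105). Cox6b2 stood at 36.4, 29.8 and 31.5 CPM and at 19.9, 24.9 and 69.9 CPM, and its change went from 0.16 with all libraries to -0.54 without replicate 3 (adjusted p = 0.0382). Cox4i2, at 5.49, 4.84 and 4.41 CPM and at 2.11, 1.26 and 6.24 CPM, changed by -1.56 without it (adjusted p = 0.0218), and Cox7b by -0.24 (adjusted p = 0.0484). In each of these 4 genes replicate 3 lay above all wild-type libraries while replicates 1 and 2 lay below them. With replicate 3 included, none of them was called. Uqcr10 (-1.005), Cox6a2 (-0.76), Uqcrfs1 (-0.43), Cox7c (-0.32) and Uqcrc1 (1.10) kept their calls without it.

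**Figure D4:**
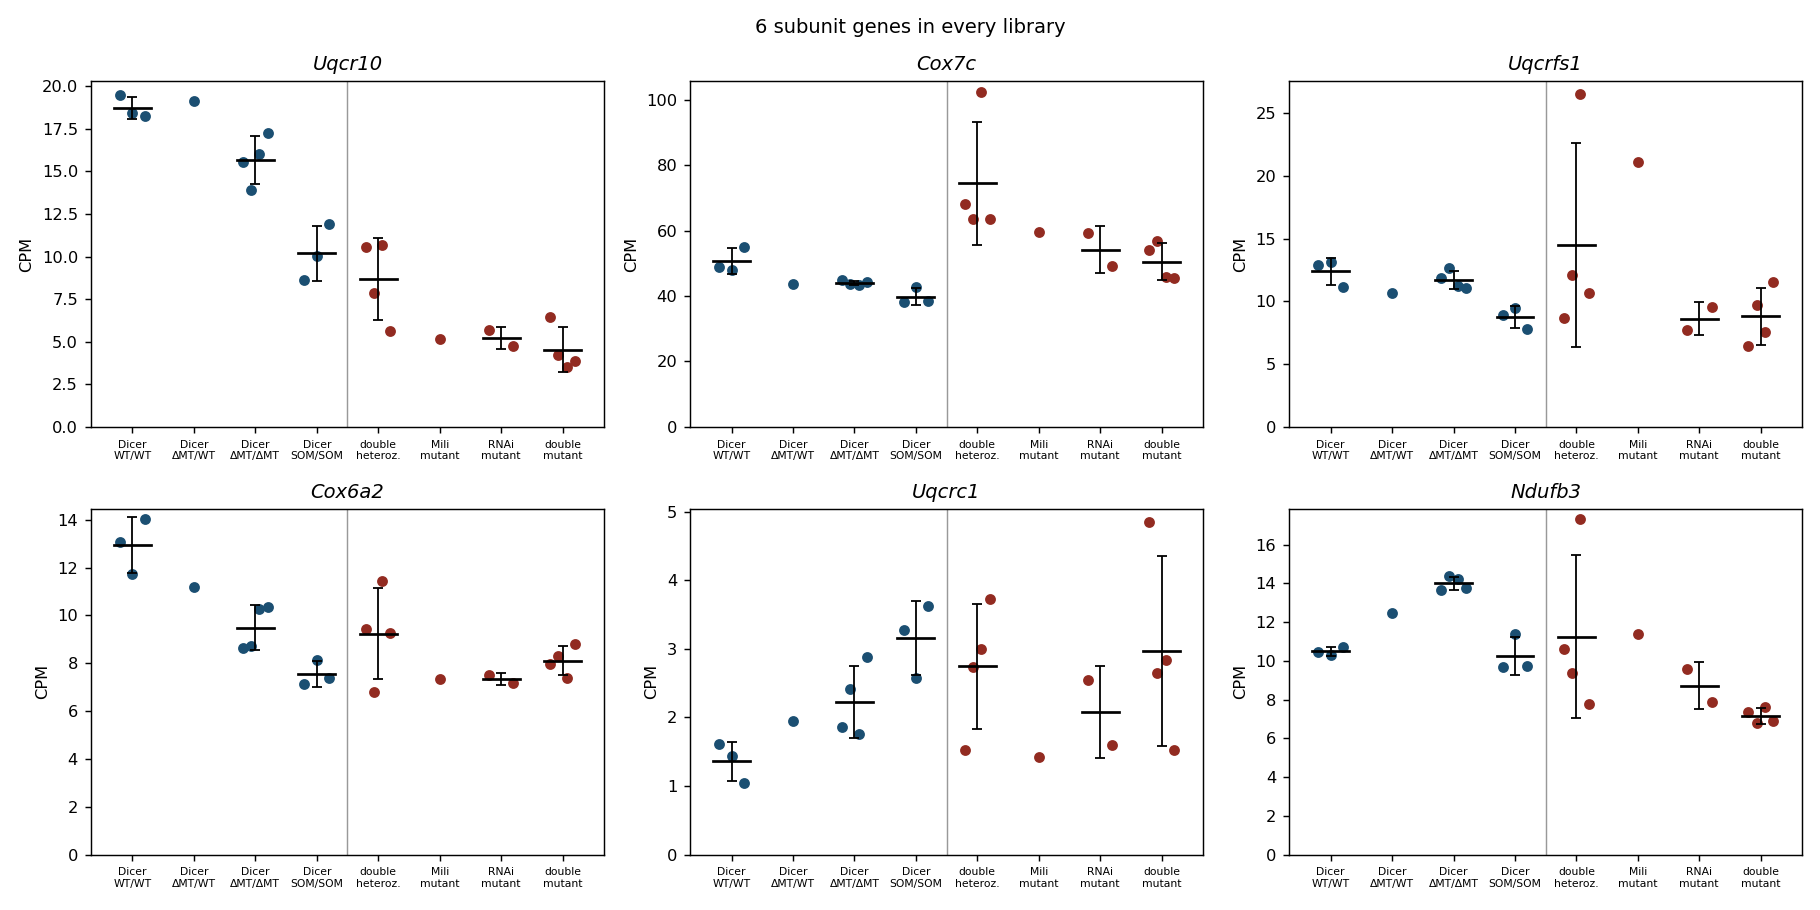
Each point is the CPM of 1 library, with the mean and SD of groups with more than 1 library, and the vertical line parts the single-end run (left, blue) from the paired-end run (right, red). Uqcr10 falls from about 18.2 to 19.5 CPM in wild type to 8.63 to 11.9 CPM in Dicer SOM/SOM, and Uqcrc1 rises over the same groups.

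In Dicer ΔMT/ΔMT against wild type 4 of the 5 called members belonged to complex I, which holds 35 of the 62 tested members. The members' median was 0.16 log2 units, with a median size of change of 0.19, beside 0.01 over all tested genes. Members called higher numbered 4 of 62, against 8.06% of all tested genes, and 1 of 62 was lower, against 7.3%. The called rises were all supernumerary subunits of complex I. Of these 28 subunits 14.3% were called, against 15.4% of all tested genes. Among the 28, 22 had a positive sign and 12 reached an unadjusted edgeR p under 0.05, all of them positive. Over all 23151 genes 11756 had a positive sign and 6828 reached that p in either direction. In Dicer SOM/SOM, set against the same wild-type libraries, 22 of the 28 were positive too, so the 2 counts are not independent. Over the 62 members, wild-type replicates 1, 2 and 3 lay a median -0.16, -0.13 and 0.02 log2 units from the run mean. The part of this in the signs was not tested. The 7 core subunits had a median of -0.01, and none of them was called.

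Ndufb3, a small subunit of the membrane arm, had the lowest adjusted p of these. It measured 10.5, 10.3 and 10.7 CPM in wild type and 13.7, 14.4, 14.2 and 13.8 CPM in Dicer ΔMT/ΔMT, with no overlap and a log2 fold change of 0.42 ± 0.10 (SE, edgeR adjusted p = 0.0151). In Dicer SOM/SOM it was back at 9.70, 11.4 and 9.72 CPM, lower than in Dicer ΔMT/ΔMT by a log2 fold change of -0.44 ± 0.10 (adjusted p = 0.0247). Its rise was no longer called without wild-type replicate 1 or 2. Ndufb6, also of the membrane arm, rose by 0.53 ± 0.15 (adjusted p = 0.0372), Ndufa2, of the matrix arm, by 0.40 ± 0.11 (adjusted p = 0.0303), and Ndufb11 by 0.33 ± 0.10 (adjusted p = 0.0493). For each of these 3 an exon of a gene on the other strand overlaps the member, and Ndufb11 has a close pseudogene copy. The call of Ndufb11 was lost with any of the 7 libraries left out. Those of Ndufb6 and Ndufa2 were each kept in only 2 of these 7 fits. The count of members called fell from 5 to 0 without wild-type replicate 1, to 1 without wild-type replicate 2 or Dicer ΔMT/ΔMT replicate 1 or 2, to 3 without Dicer ΔMT/ΔMT replicate 3, and to 2 with no filter on low counts. Cox6a2 lost its call in this comparison without wild-type replicate 1 or 3 or Dicer ΔMT/ΔMT replicate 1 or 2.

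Dicer SOM/SOM and Dicer ΔMT/ΔMT differed in Ndufb3 and Uqcr10 alone among the tested members, both lower in Dicer SOM/SOM. No member was called higher (0 by DESeq2 as well, and 0 at an unadjusted p under 0.05), where 4.03% of all tested genes were, and 2 of 62 were lower, where the background was 3.32%. In either direction 5 of the 62 reached that unadjusted edgeR p, as did 5390 of the 23151 tested genes. The members' median was -0.06, beside 0.01 over all tested genes. Complex III had 7 of 8 members with a negative sign and a median of -0.20. Uqcr10 stayed called with any of the 7 libraries left out, whereas Ndufb3 lost its call without Dicer SOM/SOM replicate 1 or any Dicer ΔMT/ΔMT replicate. Without Dicer SOM/SOM replicate 3 the lower calls numbered 5, where 7.47% of all tested genes were called in either direction, the further ones being Ndufc1 (log2 fold change -0.69, edgeR adjusted p = 0.00474), Cox8a (-0.65, adjusted p = 0.00601) and Cox7b (-0.33, adjusted p = 0.0272).

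**Figure D5:**
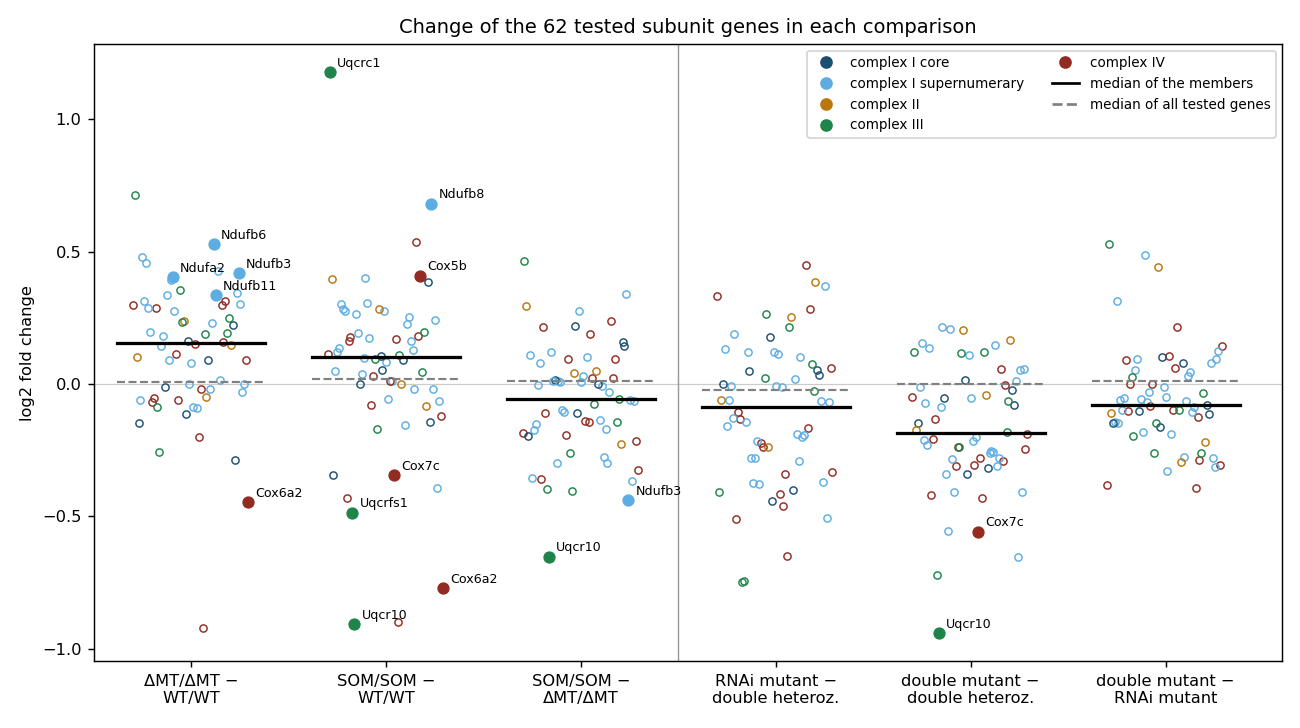
Each circle is the log2 fold change of 1 of the 62 tested members, coloured by complex, and filled and named where the edgeR adjusted p was under 0.05, with the members' median as a black line and that of all tested genes as a dashed grey line. Medians lie between -0.19 and 0.16, and most circles are open.

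In the paired-end run the double mutants differed from the double heterozygotes in 2 members, both lower. None was called higher (0 by DESeq2 and 0 at an unadjusted p under 0.05), against 12.3% of all tested genes, and the background for lower calls was 8.83%. In either direction 5 of the 62 reached that unadjusted edgeR p, as did 6902 of the 20989 tested genes. Of the 62, 46 had a negative sign and the median was -0.19, beside 0.00 (-0.00120) over all tested genes. This shift rests on double heterozygote replicate 2. Without it 33 members were positive and 29 negative, and the median was 0.02. By complex, the median without that library was 0.02 for the core and 0.05 for the supernumerary subunits of complex I, 0.13 for complex II, 0.04 for complex III and -0.08 for complex IV.

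Uqcr10 was again the lower gene of complex III. It measured 10.6, 7.86, 10.7 and 5.63 CPM in double heterozygote replicates 1o, 2o, 2 and 3, and 6.47, 4.24, 3.498 and 3.89 CPM in double mutant replicates 1o, 2o, 1 and 2. The highest double mutant exceeded the lowest double heterozygote, so the groups overlapped. The log2 fold change was -0.94 ± 0.25 (SE, edgeR adjusted p = 0.0152), and -0.82 (adjusted p = 0.0461) without double heterozygote replicate 2. The RNAi mutants lay at 5.66 and 4.75 CPM, a log2 fold change of -0.74 ± 0.31 from double heterozygotes that was not called (adjusted p = 0.165). The change of Uqcr10 in Dicer SOM/SOM of the single-end run differed from that in the double mutants by 0.00 (0.00136) ± 0.27 log2 units (SE, adjusted p = 0.9999), in a joint fit chosen after the values were seen. A miss of the threshold does not show that the changes were alike.

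Cox7c was the other. It lay at 68.2, 63.6, 102.4 and 63.5 CPM in the double heterozygotes and at 54.1, 56.8, 45.9 and 45.4 CPM in the double mutants, with no overlap and a log2 fold change of -0.56 ± 0.17 (SE, edgeR adjusted p = 0.0287). Double heterozygote replicate 2 was far above the rest. Without it the change was -0.36 and no longer called (adjusted p = 0.0675), although all double mutants remained below all double heterozygotes. Leaving out double mutant replicate 1 (-0.51, adjusted p = 0.078) or replicate 2 (-0.51, adjusted p = 0.0725) also ended the call, as did the replicate number as a block (-0.62, adjusted p = 0.069). A fit of the younger animals only ended it too. The RNAi mutants lay at 59.3 and 49.1 CPM, below all double heterozygotes, with a log2 fold change of -0.46 ± 0.21 (adjusted p = 0.2).

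Of the other members called in Dicer SOM/SOM of the single-end run, none was called in the double mutants. The log2 fold change of Cox6a2 there was -0.19 ± 0.18 (edgeR adjusted p = 0.516), with overlap between 6.79 to 11.4 CPM in double heterozygotes and 7.37 to 8.80 CPM in double mutants. That of Uqcrc1 was 0.12 ± 0.35 (adjusted p = 0.858). That of Uqcrfs1 was -0.72 ± 0.31 (adjusted p = 0.121), with double heterozygote replicate 2 at 26.6 CPM, the other double heterozygotes at 8.70 to 12.1 CPM, the piRNA mutant at 21.1 CPM and the double mutants at 6.41 to 11.6 CPM. No member passed the test of a difference in effect between the runs, neither for RNAi mutants nor for double mutants. Those tests called 0.00806% and 0.669% of 24824 genes, so the lack of calls says little about the members.

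No member was called in the RNAi mutants against double heterozygotes by edgeR or by DESeq2. An unadjusted edgeR p under 0.05 was reached by 3 of the 62, and by 4951 of the 20989 tested genes. The background was 7.07% of all tested genes called higher and 3.64% lower. The members' median was -0.09, and 0.06 without double heterozygote replicate 2, when Ndufa8, a supernumerary subunit of complex I, was called higher (log2 fold change 0.71, edgeR adjusted p = 0.0123). Ndufa8 stood at 15.5, 14.5, 31.6 and 16.0 CPM in the double heterozygotes and at 23.9 and 26.2 CPM in the RNAi mutants. With 2 RNAi mutants the median standard error was 0.25 for the members and 0.32 for all tested genes. For 52 of 62 the 95% interval lay within 1 log2 unit of no change, against 42.0% of tested genes.

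The double mutants and the RNAi mutants differ in the Mili alleles and in age, since only the double mutants include animals of 35 and 40 weeks. No member was called between them in edgeR or DESeq2, and none reached an unadjusted p under 0.05 in edgeR. Over all tested genes 0.31% were higher and 0.00476% lower, and 1004 of 20989 reached an unadjusted edgeR p under 0.05. The members' median was -0.08, and -0.16 in a fit of the younger animals only. The interval lay within 1 log2 unit of no change for 57 of 62, against 53.7% of tested genes. The median standard error was 0.25 for members and 0.32 for all tested genes. The largest difference was that of Uqcrc1, 0.53 ± 0.45, which was not called (edgeR adjusted p = 0.9997).

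Age could be examined among double mutants and double heterozygotes, with 2 libraries of each on either side of 30 weeks. Taken in a fit with age classes as separate groups, chosen after the values were seen, the members' median difference between genotypes was -0.36 in the younger and 0.01 in the older animals. No member passed the test of the difference between the age classes. That test called 0.00476% of 20989 genes, so it could hardly have called a member. The younger double heterozygotes include replicate 2. Within the younger libraries Cox7c changed by -0.86 ± 0.22 (edgeR adjusted p = 0.0295) and Uqcr10 by -1.15 ± 0.35 (adjusted p = 0.0587), and within the older ones by -0.25 ± 0.22 (adjusted p = 0.537) and -0.78 ± 0.34 (adjusted p = 0.169). A fit of the younger animals only, without the older libraries, called neither gene.

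Neither single library went far from its controls. Against the wild-type range, the Dicer ΔMT/WT library had 0 of 62 members that were outside it and at least 1 log2 unit from the mean, where 7.46% of tested genes were. Its differences ran from -0.60 to 0.62. The piRNA mutant had 0 of 62 against the double heterozygotes, beside 8.71% of tested genes, and its differences ran from -0.85 to 0.68. With 1 library there is no test.

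Other genes of oxidative phosphorylation were followed as lists, and the genes named here were picked after their values were seen. Of all tested genes, 28.6% were called in Dicer SOM/SOM, 15.4% for Dicer ΔMT/ΔMT, 10.7% for RNAi mutants and 21.2% for double mutants. Of 17 ATP synthase genes, 2 were higher and 1 lower in Dicer SOM/SOM against wild type, and 1 higher and 1 lower in double mutants (17.6% and 11.8% of the list). Atp5k, a small subunit of the membrane part, was the lower one in both (log2 fold change -0.72 ± 0.11, edgeR adjusted p = 0.000714, and -1.002 ± 0.23, adjusted p = 0.00591). Atp5g1 was called higher in both, and Atp5g3 in Dicer SOM/SOM. Of 14 electron carrier genes 1 was higher and 2 lower in both comparisons (21.4% of the list), among them Cycs, the somatic cytochrome c (-0.33 ± 0.11, adjusted p = 0.0412, and -0.47 ± 0.16, adjusted p = 0.0467). Pdss2 was the higher one in both, and the other lower one was Coq2 in Dicer SOM/SOM and Coq7 in double mutants.

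Assembly factors, which build the complexes without staying in them, included the largest changes of the chain's genes examined here. Sdhaf4, which assists complex II, was higher in all 4 comparisons of an RNAi-deficient genotype with its control, with log2 fold changes of 1.86 ± 0.21 in Dicer ΔMT/ΔMT, 3.22 ± 0.23 in Dicer SOM/SOM, 3.07 ± 0.27 in RNAi mutants and 2.88 ± 0.24 in double mutants (largest edgeR adjusted p = 0.000227). Sdha to Sdhd, the subunits of complex II, gave no call in any of these. Lyrm7, a chaperone of the Rieske protein, was also higher in the 4 comparisons, by 1.17 ± 0.15, 0.94 ± 0.16, 1.01 ± 0.29 and 0.99 ± 0.24, and Coa5, a factor for complex IV, by 0.47 ± 0.09, 0.74 ± 0.09, 0.67 ± 0.16 and 0.67 ± 0.13. Other factors fell. Sdhaf2, for complex II, and Uqcc1, for complex III, were called lower in Dicer SOM/SOM and in double mutants. Both comparisons thus had 1 higher and 1 lower of 4 factors for complex II and of 5 tested for complex III. Of 14 factors for complex I, Dicer SOM/SOM had 2 higher and 1 lower (21.4%), and double mutants 0 higher and 1 lower (7.14%). Of 19 factors for complex IV, Dicer SOM/SOM had 4 higher and 3 lower, and double mutants 2 higher and 3 lower (36.8% and 26.3%). Of all tested genes 28.6% and 21.2% were called in these comparisons. Comparisons within a run share their controls.

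Among 18 regulators of mitochondrial biogenesis, Dicer SOM/SOM showed 2 higher and 2 lower, with 1 higher and 1 lower in Dicer ΔMT/ΔMT, 1 higher in RNAi mutants, and 2 higher and 1 lower in double mutants, each a smaller share than over all tested genes. Ppargc1b, a coactivator of respiratory genes, was lower in Dicer ΔMT/ΔMT (-0.85 ± 0.16, edgeR adjusted p = 0.00537) and Dicer SOM/SOM (-1.01 ± 0.18, adjusted p = 0.00193). It was not called in RNAi mutants or double mutants. Twnk was called higher in Dicer ΔMT/ΔMT, RNAi mutants and double mutants, Yy1 in Dicer SOM/SOM and double mutants, and Tfam in Dicer SOM/SOM. Tfb1m was called lower in Dicer SOM/SOM and Lrpprc in double mutants. The 13 mitochondrially encoded genes summed to 5703 to 7657 CPM in wild type, 6173 to 11087 CPM in Dicer ΔMT/ΔMT and 5123 to 8059 CPM in Dicer SOM/SOM, with broad overlap. In the paired-end run they summed to 3663 to 5599 CPM in double heterozygotes, 3822 CPM in the piRNA mutant, 6852 and 7030 CPM in RNAi mutants and 5946 to 7797 CPM in double mutants, so that both RNAi-deficient genotypes lay above all double heterozygotes. Of the 13, 4 were called higher in double mutants, mt-Co1, mt-Co2, mt-Nd1 and mt-Nd2, with log2 fold changes of 0.63 to 0.73, where 12.3% of all tested genes were higher. In RNAi mutants mt-Co1 (0.82) and mt-Nd1 (0.83) were called higher, where 7.07% of all tested genes were, and in Dicer SOM/SOM mt-Nd3 (0.97), where 14.5% were. The ribosomal-repeat gene Gm42418 exceeded 1000 CPM in 6 of the 11 paired-end libraries, namely both RNAi mutants, 2 double mutants and 2 double heterozygotes, and its part in these sums was not tested.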

How the data were processed

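RNA-seq of GV oocytes was taken as the table of expected counts that the authors deposited for 52636 GENCODE M15 genes in 22 samples, with exon coordinates and lengths. Per the study's methods, the authors mapped reads with STAR 2.5.3a to GRCm38 while retaining multi-mapping reads, and counted with featureCounts (version not given in the sources used here) without strand, so that reads were shared between places and genes and 61 of 65 members hold values that are not whole. Names and gene types came from GENCODE M21, where 52489 IDs matched. The columns of estimated counts were rounded to whole numbers, and each run was fitted apart with edgeR 4.0.16 (R 4.3.3): TMM, edgeR's expression filter (at least 10 counts at the median depth in as many libraries as the smallest group of 3 or 2, total at least 15), the quasi-likelihood F test, and Benjamini-Hochberg adjustment over all 23151 (single-end) or 20989 (paired-end) tested genes. The test was two-sided, and calls were made at 0.05. Fold changes used a prior count of 0.125. Samples were grouped by genotype per the labels. The fit was tested on simulated data. At the lowest depth 3 counts equal 0.464 CPM. Intervals of fold changes are those of edgeR's model.

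Alternatives were DESeq2 1.42.0, no filter on low counts, the compared groups alone, each library left out, the replicate number as a block and, in the paired-end run, age and rRNA terms. Close copies were sought with a minimum identity of 95% over at least 50% of a member's transcript; 3 of 65 members had any (Ndufb11, Ndufs3 and Uqcrb). The genes named were the called members with the 4 largest rises and falls in each comparison at a mean of at least 1 CPM, the highest member of each complex, the tested tissue-limited isoforms and members set beside them. Members, lists and tests were chosen with earlier results of these data known. The deposited repeat table was not used here, and the level of 1 member is not reported here.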

Additional observations from a re-analysis of the deposited data

Results flagged for a closer look

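In groups of 4 libraries, a library was picked out when its gap to the nearest other, divided by the group's range, exceeded Dixon's 95% critical value. Of 57 groups examined over 18 named members and their sum, 3 had such a library, and chance alone picks about 1 group in 20. Cox7c stood at 102.4 CPM in double heterozygote replicate 2, where the other double heterozygotes lay between 63.5 and 68.2 CPM. Cox4i2 stood at 1.76 CPM in double mutant replicate 2, below the 2.80 to 2.95 CPM of the others. Cox8c stood at 0.155 CPM in double heterozygote replicate 3, below the 0.4996 to 0.565 CPM of the others, a level that few counts support. The groups of 3 wild-type and 3 Dicer SOM/SOM libraries are too small for this check. No member passed the tests of a difference between the runs or between age classes. These tests called at most 0.669% of all tested genes, so they could hardly decide this for the members.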

How the results depend on the processing

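The 5 members called in Dicer ΔMT/ΔMT against wild type became 8 with DESeq2 and with the compared groups alone, 2 without a filter on low counts and 2 with the replicate block, and ran from 0 to 6 with a library left out. The 7 called in Dicer SOM/SOM became 3 with the compared groups alone and 10 with the replicate block, and ran from 5 to 9. The 2 called between Dicer SOM/SOM and Dicer ΔMT/ΔMT became 1 with the compared groups alone and 0 with the replicate block, and ran from 1 to 5. The 2 in double mutants became 4 without a filter and 0 in the younger animals only, and ran from 1 to 3. In RNAi mutants the count ran from 0 to 1, and between double and RNAi mutants it was 0 throughout. The replicate block tests no pairing from the design, since deviations of libraries with the same number correlated between -0.0691 and 0.177. The members' median changed sign in 3 comparisons with a library left out, running from -0.239 to 0.0618 in RNAi mutants (the highest without double heterozygote replicate 2), from -0.247 to 0.0155 in double mutants (likewise) and from -0.132 to 0.0561 between double and RNAi mutants (the highest without RNAi mutant replicate 1). Uqcr10, Cox6a2 and Uqcrc1 stayed called in Dicer SOM/SOM against wild type under all 10 alternatives (Uqcr10 adjusted p from 1.86e-09 to 0.00656, Cox6a2 from 3.67e-06 to 0.00915, Uqcrc1 from 0.000581 to 0.0212). In double mutants Uqcr10 lost its call in the younger animals only (-1.14, adjusted p = 0.0697), and so did Cox7c. Cox6b2 in Dicer SOM/SOM changed sign without replicate 3 (0.16 to -0.54). The shallowest library limits what can be said of members near 1 CPM, and the cause of the shifts was not tested.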

Other observations

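Within wild-type libraries the subunits of a complex that holds them in equal number differed in RNA level per length, from 8.16 RPKM (Sdhb) to 76.4 RPKM (Sdhd) in complex II and from 0.823 RPKM (Uqcrc1) to 66.4 RPKM (Uqcrh) in complex III. In Dicer SOM/SOM the same ends lay at 10.1 RPKM and 76.1 RPKM, and at 1.91 RPKM and 68.1 RPKM. Exon lengths are those of all annotated transcripts together, so a gene with long rare transcripts is listed too low.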
